A study of Mus musculus with 47 samples.

Results

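The genes described here build sterols and fatty acids or control that synthesis through the SREBP transcription factors. They were chosen by symbol and function, with earlier results of these data known. They are 19 genes of cholesterol synthesis and sterol transport, 8 genes of fatty acid synthesis and 4 regulators, 31 in all. Of these, 30 had a named probe set among the 18194 genes of the arrays (18 sterol genes, 8 fatty acid genes and the 4 regulators). Acat2 was not analysed here.

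SREBPs are made as membrane proteins of the endoplasmic reticulum, where Scap binds them and Insig proteins retain them while sterols are plentiful. When sterols fall, Scap carries them to the Golgi, proteases release their active part, and this enters the nucleus and switches on the genes of sterol and fatty acid synthesis. The protein of Srebf2 acts mainly on cholesterol genes and that of Srebf1 mainly on fatty acid genes. Dividing cells draw on both products for new membrane.

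All 47 arrays hold RNA of Eµ-myc;Bcl2 cells, that is, B cell lymphoma cells from lymph nodes of mice whose Myc transgene is driven by the immunoglobulin heavy chain enhancer, transduced to make the antiapoptotic protein Bcl2. The cells grew on irradiated NIH 3T3 mouse fibroblasts, and all had 48 h of puromycin. WT lymphomas, with Suv39h1 intact, were measured untreated (native, 14 arrays) and after 5 days of 0.05 µg/ml Adriamycin (ADR, the DNA-damaging drug doxorubicin, 14 arrays). Suv39h1- lymphomas, which lack this histone H3K9 methyltransferase, were measured native and under ADR (5 arrays each). Suv39h1ER cultures are Suv39h1-deficient cells with a Suv39h1 fused to an estrogen receptor domain that 4-hydroxytamoxifen (4OHT) activates. They were measured untreated, with ADR alone, and with ADR plus 4OHT (3 arrays each). Every group thus carries the Myc transgene and the Bcl2 vector, no group received 4OHT without ADR, and the 47 arrays come from 22 cultures. Levels are log2 RMA values, on which a difference of 1 is a doubling, and a gene was called at an adjusted p under 0.05 in limma.

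Several libraries stood apart. The ADR array of WT lymphoma 1570 had the highest difference of the 3′ and 5′ Gapdh probe sets, 0.907, against at most 0.470 in the other arrays and -0.02 in its own native array. The ADR array of Suv39h1- lymphoma 1032 had a median of 4.07, against 4.32 to 4.43 in the other 46 arrays. The arrays of WT lymphomas 2949, 5043, 5766 and 6054 resembled each other beyond their group, as did those of Suv39h1- 7890 and 9250, so they may share an origin. Suv39h1ER cultures 5043 and 4936 bear the numbers of a WT and of a Suv39h1- lymphoma. B cell markers averaged 7.69 to 10.2 per array over all groups and T cell markers 4.09 to 5.98. Where nothing shows that cultures came from separate mice, p-values measure only the spread between these samples.

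In native WT lymphomas the sterol genes were set at very different levels. The arm level of an array is the median, over its 18 sterol genes, of the difference from the WT native mean on the log2 scale. It ran from -0.99 (lymphoma 2949) to 0.96 (lymphoma 1570), with an SD of 0.63 (n = 14). The native arrays lay in a low and a high set of 7 each, with none between -0.35 and 0.28. Under ADR the same level had a median of -0.79 and an SD of 0.28, and 13 of the 14 arrays lay at or below -0.49. Lymphoma 1467, at -0.00, was the exception.

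**Figure D1:**
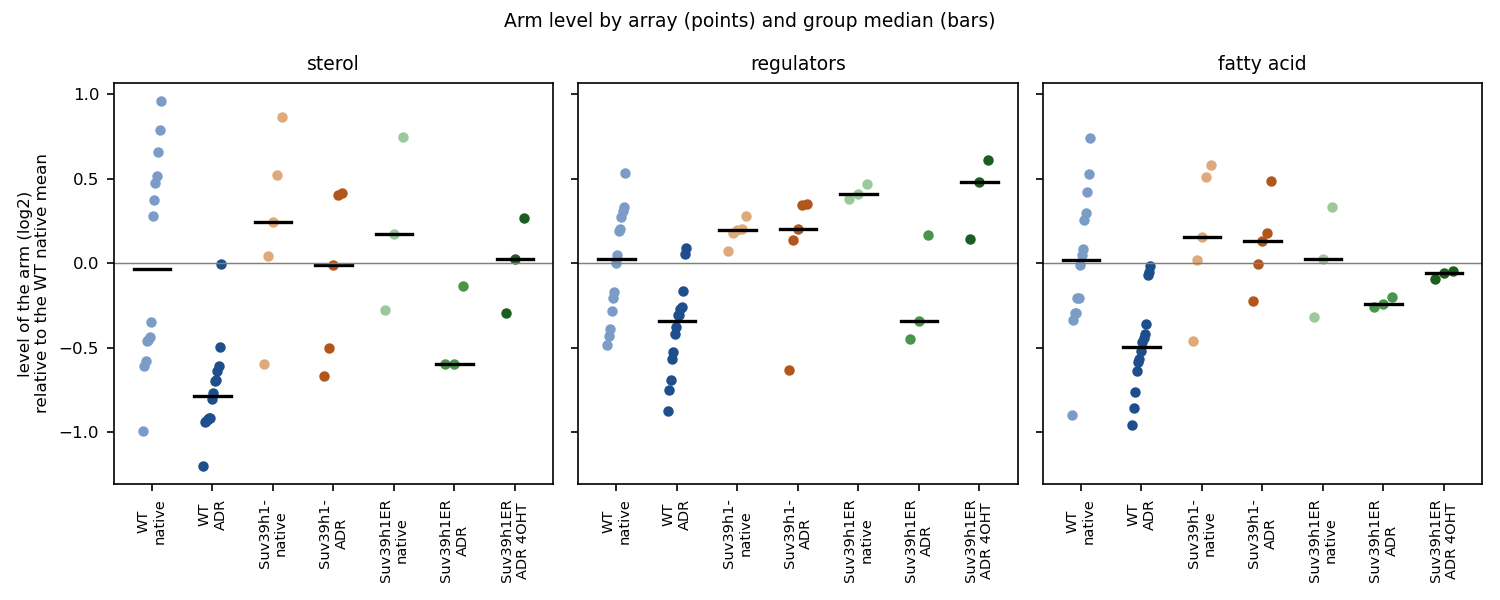
Level of the sterol genes, the regulators and the fatty acid genes in each of the 47 arrays (log2, relative to the WT native mean), by genotype and treatment; bars are group medians. WT native arrays spread from -0.99 to 0.96 for the sterol genes, and WT ADR arrays gather around a median of -0.79.

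Transcripts of the sterol pathway were lower in WT arrays under ADR than in native ones. Of the 30 measured genes, 18 were called lower and 0 higher, while 14.1% of all genes were called lower and 16.1% higher. The sterol arm had 12 of 18 called, with a median log2 change of -0.71, the fatty acid arm 4 of 8 with a median of -0.34, and the regulators 2 of 4 with a median of -0.32. The median over all genes was -0.00. The change was below 0 in 29 of 30 genes, the exception being Scd2 at 0.06.

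**Figure D2:**
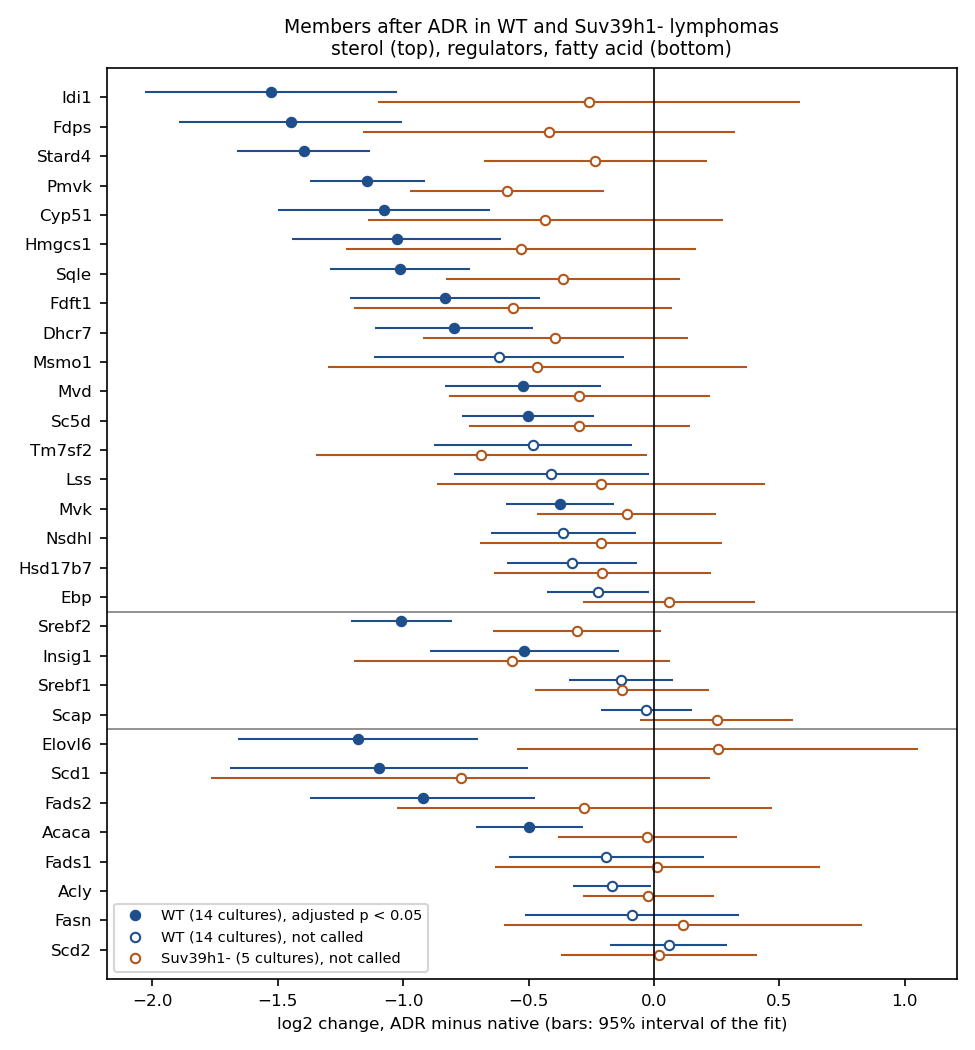
Log2 change after ADR (x axis, ADR minus native) with its 95% interval for each of the 30 genes, in WT (blue, 14 cultures) and Suv39h1- lymphomas (brown, 5 cultures); filled points were called at an adjusted p under 0.05. In WT 18 genes are filled and lie left of 0, from Idi1 at -1.53 to Mvk at -0.37; in Suv39h1- none is filled.

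Stard4, a cytosolic carrier that moves sterol between membranes, had the smallest p. Its native levels ran from 6.78 over a median of 7.92 to 8.81, and its ADR levels from 5.99 over 6.36 to 8.22. The groups overlapped, but 11 of 14 ADR arrays lay below every native array. Stard4 fell in 14 of 14 lymphomas, by 2.63-fold (log2 change -1.40 ± 0.13 SE, adjusted p = 4.26e-08, limma). Pmvk, the phosphomevalonate kinase, ran from 6.95 over 7.61 to 8.88 native and from 6.09 over 6.58 to 7.23 under ADR. Here 13 of 14 ADR arrays lay below every native array. It fell in 14 of 14 lymphomas (-1.14 ± 0.11 SE, adjusted p = 7.87e-08, limma).

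Idi1 and Fdps had the largest changes. Idi1, which interconverts the isoprene building blocks, ran from 7.50 over 9.43 to 10.85 native and from 6.90 over 7.79 to 9.14 under ADR. Only 4 ADR arrays lay below every native array, and the change was lower in 13 of 14 lymphomas (-1.53 ± 0.24 SE, 2.88-fold, adjusted p = 2.93e-05, limma). Lymphoma 3769 fell by 3.49 and lymphoma 5043 changed by 0.07. Fdps, which makes farnesyl diphosphate for sterols and for protein prenylation, ran from 8.27 over 9.41 to 10.99 native and from 7.20 over 8.02 to 9.57 under ADR. The ranges overlapped, with 8 ADR arrays below every native array. Fdps was lower in 13 of 14 lymphomas (-1.45 ± 0.22 SE, 2.73-fold, adjusted p = 1.22e-05, limma).

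Sqle, the squalene epoxidase that controls flux into the sterol branch, ran from 7.52 over 8.94 to 10.00 native and from 7.10 over 7.96 to 8.94 under ADR. Only 3 ADR arrays lay below every native array, yet Sqle fell in 14 of 14 lymphomas (-1.01 ± 0.14 SE, adjusted p = 3.47e-06, limma). The groups overlapped, but each lymphoma fell from its own native level.

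The other sterol genes called were Cyp51 (lanosterol demethylase, -1.07), Hmgcs1 (which makes HMG-CoA, -1.03), Fdft1 (squalene synthase, -0.83), Dhcr7 (the last reductase, -0.80), Mvd (-0.52), Sc5d (-0.50) and Mvk (-0.37). Each was lower in 10 to 13 of 14 lymphomas. Not called were Msmo1 (-0.62), Tm7sf2 (-0.48), Lss (-0.41), Nsdhl (-0.36), Hsd17b7 (-0.33) and Ebp (-0.22). A dimmer probe set each of Lss (-0.72) and Hsd17b7 (-0.44) was called lower (adjusted p = 0.0263 and 0.0428, limma over all probe sets). At their brightest probe sets Hsd17b7 and Nsdhl were just outside the threshold, at adjusted p of 0.0517 and 0.0528 (limma).

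**Figure D3:**
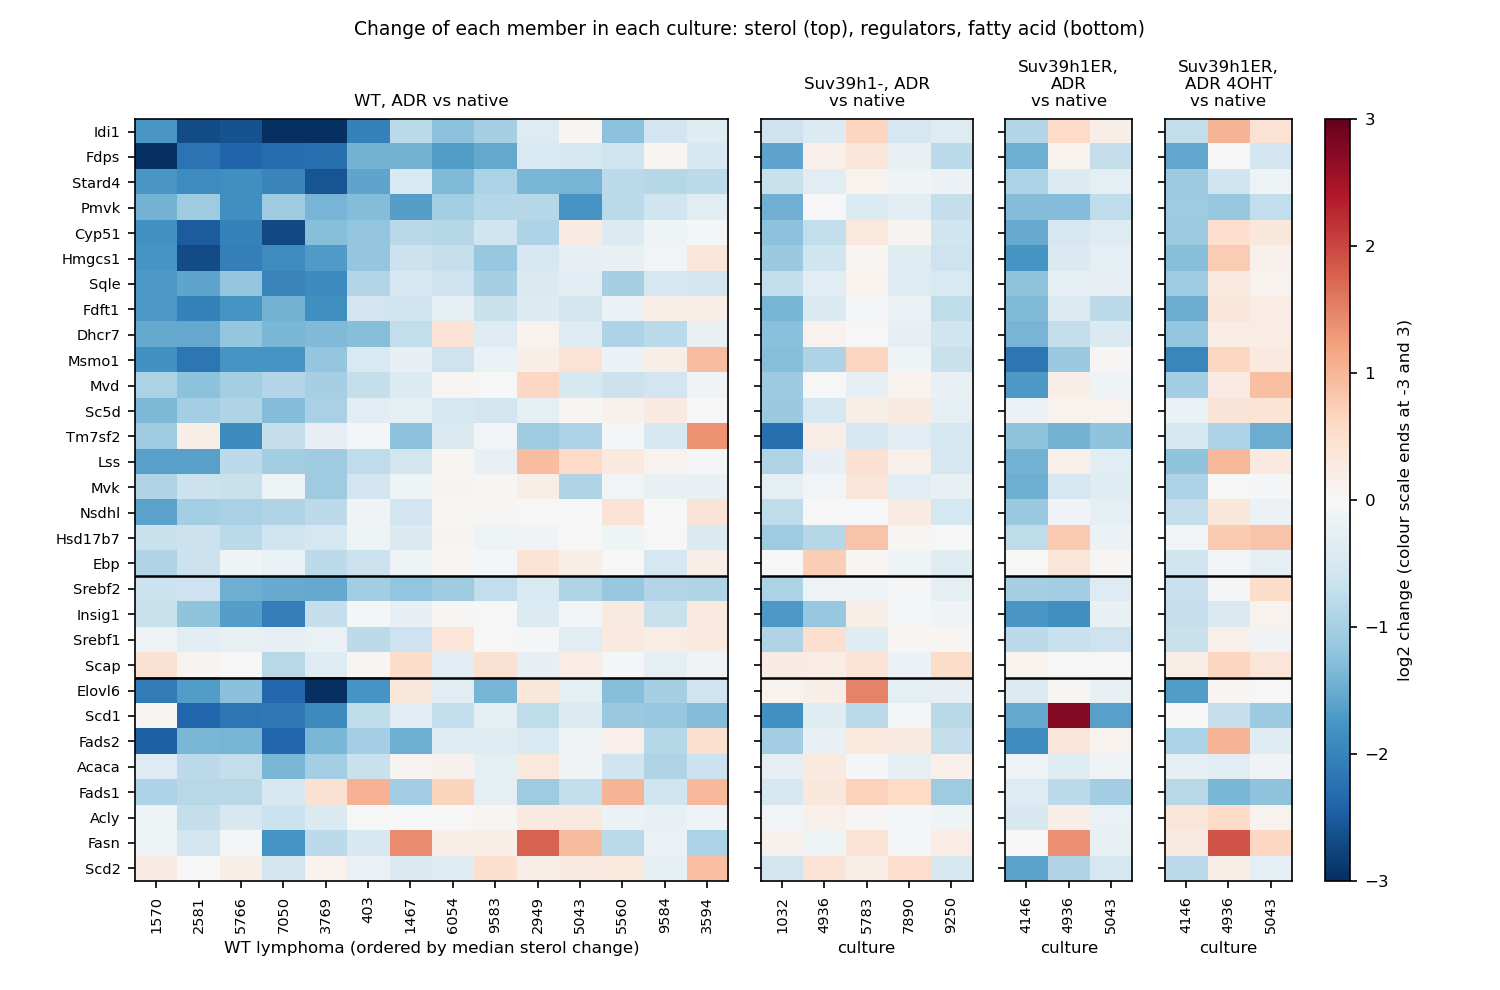
Log2 change of each of the 30 genes (rows, by arm) in each culture (columns) for the comparisons with native cells; blue is lower and red higher than native. In WT, lymphomas 1570, 2581, 5766, 7050 and 3769 form a dark block at the left, with median sterol changes from -1.62 to -1.21, while lymphoma 3594 at the right has -0.08.

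The regulators split. Srebf2, the sterol regulator itself, ran from 7.62 over 8.36 to 9.31 in native WT cells and from 6.59 over 7.23 to 8.13 under ADR, with 11 of 14 ADR arrays below every native array. Srebf2 fell in 14 of 14 lymphomas, with changes from -1.53 to -0.45 and a mean fall of 2.01-fold (-1.01 ± 0.10 SE, adjusted p = 6.75e-08, limma). Insig1, which retains SREBPs and is itself one of their targets, ran from 6.42 over 7.39 to 8.49 native and from 6.12 over 6.92 to 7.62 under ADR. The ranges overlapped widely, and Insig1 was lower in 11 of 14 lymphomas (-0.52 ± 0.18 SE, adjusted p = 0.0328, limma). Its call was lost in 10 of 25 alternative settings, among them 6 that left out a single lymphoma (1570, 2581, 3769, 5766, 7050 or 9584).

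Srebf1, the fatty acid regulator, ran from 8.0 over 8.60 to 9.14 native and from 7.95 over 8.46 to 8.61 under ADR, and was not called (-0.13 ± 0.10 SE, adjusted p = 0.387, limma). Scap, the escort protein, ran from 8.65 over 8.89 to 9.23 native and from 8.13 over 8.75 to 9.64 under ADR, with no call (-0.03 ± 0.09 SE, adjusted p = 0.861, limma). The interval of its change, from -0.21 to 0.15, leaves out a fall as large as that of Srebf2.

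In the fatty acid arm Elovl6, Acaca, Fads2 and Scd1 fell. Elovl6, an elongase of saturated fatty acids, ran from 5.87 over 7.72 to 9.0 native and from 5.28 over 6.59 to 7.87 under ADR. Only 1 ADR array lay below every native array, and Elovl6 was lower in 12 of 14 lymphomas (-1.18 ± 0.23 SE, adjusted p = 0.000302, limma). Acaca, the acetyl-CoA carboxylase of the committed step, ran from 7.53 over 8.13 to 8.68 native and from 7.20 over 7.60 to 8.0 under ADR. It was lower in 11 of 14 (-0.50 ± 0.10 SE, adjusted p = 0.000537, limma), and 7 ADR arrays lay below every native array.

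Fads2, a desaturase of polyunsaturated fatty acids, was dim, from 4.47 over 5.79 to 7.37 native and from 4.02 over 4.93 to 5.85 under ADR. It was lower in 12 of 14 lymphomas (-0.92 ± 0.22 SE, adjusted p = 0.00179, limma), with overlapping ranges. Scd1, the stearoyl-CoA desaturase, was also called (-1.10, lower in 13 of 14). Its paralog Scd2, which ranged from 11.12 to 12.62 in native cells, was not (0.06, interval -0.17 to 0.29). Fasn, the fatty acid synthase, was not called (-0.09 ± 0.21 SE) and varied from -1.78 in lymphoma 7050 to 1.76 in lymphoma 2949. Acly (-0.17) and Fads1 (-0.19) were not called either, though a dimmer probe set of Acly was called lower (-0.36, adjusted p = 0.00568, limma over all probe sets).

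The promoters of the pathway's genes were searched because SREBPs act at such promoters together with NF-Y, whose box is CCAAT, and Sp1. RefSeq promoter windows (build GRCm38.p6, 250 bases before to 50 after the gene start) were found for 23 of the 30 measured genes. Both strands were searched for the SREBP element TCACNCCAC, the NF-Y box CCAAT, the Myc E-box CACGTG and the Sp1 box GGGCGG. The NF-Y box stood in 19 of 23 genes (82.6%), among them 14 of 14 sterol genes but 2 of 5 fatty acid genes, against 42% of the 14453 measured genes with a window. GGGCGG stood in 82.6% against 57.3%, CACGTG in 21.7% against 10.2%, and TCACNCCAC in 1 gene (4.35%) against 1.46%. Where a gene has several windows, a match in any of them counted. The shares cover genes called and not called in WT. Lss, Tm7sf2, Msmo1, Nsdhl, Hsd17b7 and Ebp, not called at their brightest probe sets, hold CCAAT, while the called Elovl6, Acaca and Fads2 do not.

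Near matches to the SREBP element were not searched, so a gene without a match may still hold one. The gene with an exact match was Hmgcs1. Its 250 upstream bases are given with those of Srebf2, Pmvk and Idi1, which were added after their values were seen, as the called genes with the smallest p that have a window with CCAAT. All 4 stretches run 5′ to 3′ on the plus strand, from the first base listed to the base before the gene start. Capitals mark CCAAT, its reverse complement ATTGG and the SREBP element. The stretches lie at chr13:119690101-119690350 for Hmgcs1, chr15:82147019-82147268 for Srebf2, chr3:89454291-89454540 for Pmvk and chr13:8885356-8885605 for Idi1.
Hmgcs1: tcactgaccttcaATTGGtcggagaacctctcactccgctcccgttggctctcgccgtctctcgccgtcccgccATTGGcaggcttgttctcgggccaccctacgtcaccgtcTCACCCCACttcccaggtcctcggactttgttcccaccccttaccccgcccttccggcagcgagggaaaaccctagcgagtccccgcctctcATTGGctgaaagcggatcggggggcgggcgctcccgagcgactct
Srebf2: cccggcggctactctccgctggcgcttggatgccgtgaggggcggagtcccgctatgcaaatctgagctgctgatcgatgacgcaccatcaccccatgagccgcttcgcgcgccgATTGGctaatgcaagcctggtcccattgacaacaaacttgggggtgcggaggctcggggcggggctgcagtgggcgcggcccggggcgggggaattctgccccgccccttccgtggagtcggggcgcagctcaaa
Pmvk: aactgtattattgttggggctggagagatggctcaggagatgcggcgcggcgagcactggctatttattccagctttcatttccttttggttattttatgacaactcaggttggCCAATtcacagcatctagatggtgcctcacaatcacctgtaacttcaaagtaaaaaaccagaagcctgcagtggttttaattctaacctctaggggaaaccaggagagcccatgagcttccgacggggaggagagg
Idi1: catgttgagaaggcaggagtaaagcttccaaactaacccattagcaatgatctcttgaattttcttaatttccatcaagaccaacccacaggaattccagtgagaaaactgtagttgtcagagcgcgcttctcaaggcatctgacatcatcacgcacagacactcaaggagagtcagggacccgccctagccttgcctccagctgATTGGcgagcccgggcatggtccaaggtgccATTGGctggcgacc
In Hmgcs1 the SREBP element lies 137 to 129 bases before the start, between an ATTGG at 176 to 172 and another at 45 to 41, with a further ATTGG at 237 to 233. In Srebf2 and Pmvk a single CCAAT or ATTGG lies 135 to 131 and 136 to 132 bases before the start. Pmvk has a further window, at chr3:89459321-89459620, with no match to any motif searched. In Idi1 ATTGG lies at 45 to 41 and again at 14 to 10.

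Lymphomas differed in how far the pathway fell. The median sterol change was below 0 in 14 of 14 WT lymphomas, from -1.62 in 1570 to -0.08 in 3594, and 5 lymphomas lay below -1. Without 1570, whose ADR array has the high Gapdh difference, 17 genes were called and the sterol median was -0.63. In 7050 all 30 genes were lower, and in 1570, 2581, 5766, 7050, 3769, 403 and 1467 at least 17 of 18 sterol genes were. The 7 lymphomas with the deepest median sterol change (1570, 2581, 5766, 7050, 3769, 403 and 1467) are the 7 whose native arm level lay above 0. The native array enters both of these values. The fatty acid median was below 0 in 13 of 14 lymphomas, the exception being 2949 at 0.23, and was lowest in 7050 at -1.57.

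Other transcripts moved with the drug in the same arrays. Fibroblast markers, which the feeder layer would supply, were called higher in 22 of 24 genes with a median log2 change of 1.81, and their mean level rose from a range of 4.24 to 5.30 in native arrays to 4.88 to 9.03 under ADR. Macrophage markers were called higher in 9 of 13, proliferation genes lower in 17 of 17 with a median of -2.09, B cell markers lower in 4 of 11, and T cell markers in neither direction (0 of 7). In a bulk sample a lower share of lymphoma cells and less RNA per cell cannot be told apart. Lymphoma 1467, where fibroblast markers changed by -0.11 and macrophage markers by 2.12, had a median sterol change of -0.56 and 18 of 18 sterol genes lower. Lymphoma 403, with the largest fibroblast change of 4.17 and a macrophage change of 0.47, had -0.73. Lymphoma 5560, with a fibroblast change of 3.799 and a macrophage change of 1.09, had -0.19. The part of macrophages in the sterol changes was not tested. With the fibroblast change as a covariate, fitted at a change of 0, 6 genes were called instead of 18, 2070 of all genes instead of 5489, and 27 of 30 were below 0. Pmvk (-1.29), Fdps (-1.34), Stard4 (-1.19) and Srebf2 (-0.86) kept their call, and Tm7sf2 (-1.07) and Fads1 (-1.08) gained one. Of the calls lost, some had a change of similar size, such as Fads2 (-1.15), Fdft1 (-0.74), Insig1 (-0.57) and Sc5d (-0.49), and others a smaller one, such as Idi1 (-0.79), Elovl6 (-0.42) and Acaca (-0.12). Proliferation genes fell most in lymphoma 2949, by 3.68, where the median sterol change was -0.34. The next deepest proliferation changes, -2.73 in 3769 and -2.69 in 5766, came with sterol changes of -1.21 and -1.46. The smallest, -0.26 in 9584, came with -0.17, while 7050 had -1.34 at a proliferation change of -1.56. The part of the change in proliferation was not tested.

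**Figure D4:**
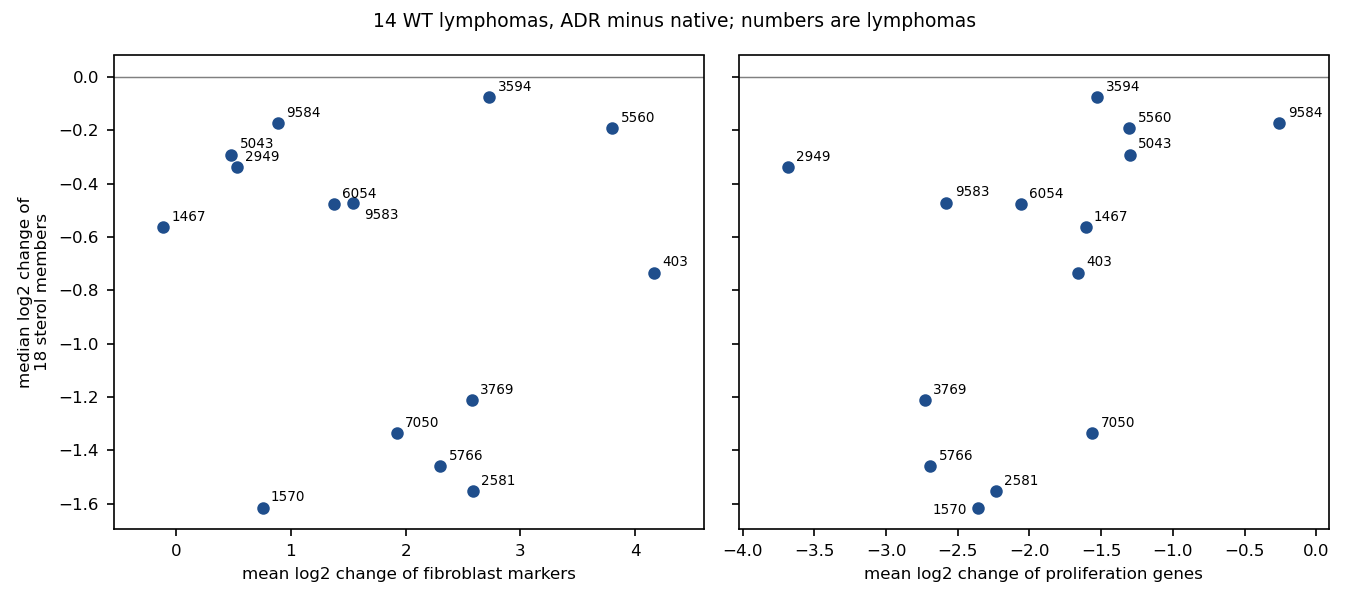
Median log2 change of the 18 sterol genes (y axis) in each of the 14 WT lymphomas against the mean log2 change of fibroblast markers (left) and of proliferation genes (right). Lymphoma 1570 has the lowest sterol value, -1.62, at a fibroblast change of 0.75, and lymphoma 5560 has -0.19 at a fibroblast change of 3.799.

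Neighbouring pathways took different courses in WT lymphomas. Of 11 other genes of sterol synthesis and its branches, 6 were called lower and 1 higher. Lbr, a nuclear envelope protein that is also a sterol reductase, fell (-1.38, lower in 14 of 14), as did Tmem97, a sterol-responsive protein that binds Npc1 (-1.01, lower in 14 of 14), while Hsd17b12 rose (0.30). Of 19 other genes of fatty acid and glycerolipid synthesis, 4 were called lower and 6 higher. Acsl3, an acyl-CoA synthetase of lipid droplets, fell (-1.34, lower in 14 of 14) and so did Gpam (-0.48), while Me1, the malic enzyme that supplies NADPH, rose (1.13) with Acsl4 (0.62).

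The machinery around SREBP and the routes of sterol supply and export were not lowered as a group. Of 10 genes of SREBP processing 0 were called lower and 3 higher, led by Erlin2 (0.49) and Ubxn8 (0.37), with a median of 0.07. Of 10 genes of lysosomal sterol release 8 were called higher, with a median of 0.70. Lrp1, a lipoprotein receptor, rose by 1.42 and Npc1, which exports cholesterol from lysosomes, by 1.10. Of 8 genes of the sterol-sensing LXR receptors and of sterol export, 4 were called higher and 2 lower. Abca1, the cholesterol exporter, rose (2.01, higher in 14 of 14), as did Abcg1 (0.62), while Rxrb (-0.35) and Lpcat3 (-0.22) fell. Macrophages and fibroblasts also express Lrp1 and Abca1, and the markers of both were higher in these arrays. The part of these cells in the changes of Lrp1 and Abca1 was not tested.

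Suv39h1- lymphomas showed no called change of the pathway under ADR. None of the 30 genes was called (limma, with 0.0110% of all genes called), and 2 had an unadjusted p under 0.05. Medians were -0.33 for the sterol genes, -0.22 for the regulators and -0.00 for the fatty acid genes, against -0.04 over all genes, and 17 of 18 sterol genes were below 0. Without lymphoma 1032 no gene was called either. That lymphoma had the deepest change, with a median sterol change of -1.11, while 5783 had 0.11.

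Srebf2 in native Suv39h1- lymphomas was 8.25 in 1032, 8.90 in 4936, 7.80 in 5783, 7.67 in 7890 and 8.40 in 9250. Under ADR it was 7.31, 8.75, 7.68, 7.64 and 8.11. It was lower in 5 of 5, by -0.31 ± 0.16 SE (adjusted p = 0.5255, limma), with most of the fall in 1032. Pmvk went from 8.50, 8.25, 7.31, 7.22 and 8.29 to 7.05, 8.24, 6.89, 6.87 and 7.58 in the same order. It too was lower in 5 of 5 (-0.59 ± 0.19 SE, adjusted p = 0.238, limma), and the groups overlapped. Fibroblast markers were called in 0 of 24 genes here (median 0.17) and proliferation genes in 0 of 17 (median -0.56).

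The difference between the responses was tested directly. In the contrast of the WT response minus the Suv39h1- response, Stard4 was the only gene of the pathway called (limma, with 0.341% of all genes called). Stard4 in Suv39h1- lymphomas was 8.33, 9.20, 7.58, 8.44 and 9.20 native and 7.65, 8.87, 7.69, 8.35 and 9.03 under ADR, in the order 1032, 4936, 5783, 7890 and 9250. Its change there was -0.23 ± 0.22 SE, against -1.40 in WT, a difference of -1.16 ± 0.25 SE (adjusted p = 0.0460, limma). The call held in 8 of 29 alternatives, with a difference between -1.27 and -1.07 and an adjusted p between 0.0221 and 0.207. It was lost with the alike lymphomas counted once (adjusted p = 0.105, limma) and without lymphoma 1032 (adjusted p = 0.0692, limma).

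Other differences of the responses were not called. Elovl6 had -1.43 ± 0.45 SE (adjusted p = 0.110, limma), Idi1 -1.27 ± 0.47 SE and Fdps -1.03 ± 0.42 SE. Srebf2 had -0.70 ± 0.19 SE (adjusted p = 0.0791, limma) and was called in 2 of 29 alternatives, with the arrays centred on their medians and without WT lymphoma 2949. The difference was near 0 for Insig1 (0.05, SE 0.36), Srebf1 (-0.00, SE 0.20) and Scd2 (0.04, SE 0.22). For the pathway as a whole, 27 of 30 differences were below 0, with a median of -0.28 against 0.05 over all genes. The fibroblast markers differed in the same contrast by a median of 1.71, the macrophage markers by 1.14 (13 of 13 above 0, 1 called) and the proliferation genes by -1.42. The mean Gapdh difference was 0.0766 in native and 0.179 in ADR arrays of WT, and 0.249 and 0.326 in those of Suv39h1-. Their part in these differences was not tested.

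Before treatment no gene of the pathway was called between the genotypes at its brightest probe set (0 of 30 in limma). Of all genes 1.09% were called, and 1 of the 30 had an unadjusted p under 0.05. A dimmer probe set each of Srebf2 (0.73), Scd2 (1.84) and Acly (0.58) was called higher in WT. Their adjusted p was 0.00517, 0.00432 and 0.011 (limma over all probe sets), against differences of 0.13, 0.01 and -0.06 at the brightest. Among the brightest probe sets Insig1 had the largest difference, -1.06 ± 0.35 SE, WT minus Suv39h1- (adjusted p = 0.219, limma). Its native levels were 7.83 to 9.53 in Suv39h1- and 6.42 to 8.49 in WT, which overlap.

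After treatment, at their brightest probe sets, 13 of 30 genes were lower in WT than in Suv39h1- lymphomas and 0 higher (limma, with 12.6% of all genes called in either direction). They comprise 10 sterol genes, Insig1, Elovl6 and Acaca, and 11 of the 13 are among the 18 that fell in WT. The WT ADR arrays enter both comparisons. The median difference was -0.67 for the sterol genes, -0.41 for the regulators and -0.46 for the fatty acid genes, against 0.04 over all genes. At another probe set Scd2 was called higher in WT (0.87, adjusted p = 0.0391, limma over all probe sets), against 0.05 at its brightest. Other probe sets of Acly were called lower (-0.48 and -0.21, adjusted p = 0.0307 and 0.0371, limma over all probe sets). The probe sets of Srebf2 differed in sign (-0.57 and 0.36), and neither was called. The number of calls depended on which lymphomas entered. With WT 2949, 5043, 5766 and 6054 averaged into 1 and Suv39h1- 7890 and 9250 into 1, 3 genes were called (Stard4, Idi1 and Elovl6). This averaging also left fewer arrays. The count fell to 6 without Suv39h1- 9250 and to 8 without any single one of WT 3769, 5766, 7050 or 9584 or Suv39h1- 7890 or 4936. It was 16 without Suv39h1- 1032.

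Idi1 had the largest difference under ADR. It was 8.78, 10.23, 8.93, 9.81 and 10.60 in Suv39h1- lymphomas 1032, 4936, 5783, 7890 and 9250, and 13 of 14 WT arrays lay below all of these. The WT minus Suv39h1- difference was -1.82 ± 0.32 SE (adjusted p = 0.00179, limma). Stard4 differed by -1.77 ± 0.29 SE (adjusted p = 0.000977, limma), again with 13 of 14 WT arrays below every Suv39h1- array. Elovl6 was 7.87, 9.49, 7.59, 8.39 and 8.92 in the same Suv39h1- lymphomas, and 13 of 14 WT arrays lay below them (-1.76 ± 0.33 SE, adjusted p = 0.00293, limma). These 3 genes were called in 26 of 26 alternatives.

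Fdps was 8.96, 10.17, 8.70, 9.31 and 9.46 in the Suv39h1- lymphomas in that order, and it differed by -1.22 ± 0.29 SE with 13 of 14 WT arrays below. Hmgcs1 was 9.40, 10.26, 9.26, 10.16 and 10.58 and differed by -1.06 ± 0.25 SE, against WT arrays from 8.01 over 8.96 to 9.92. Cyp51 was 7.07, 8.95, 7.74, 8.04 and 8.48 (difference -1.07 ± 0.27 SE), against 6.15 over 6.92 to 7.96 in WT. Adjusted p was 0.0109, 0.0112 and 0.0154 for these, and the ranges overlapped in each.

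Insig1 was 6.16, 8.39, 8.0, 8.19 and 8.75 in the same order. Apart from 1032 these arrays lay above every WT ADR array, and the difference was -1.01 ± 0.31 SE (adjusted p = 0.0385, limma). Lss, the lanosterol synthase, was 6.83, 7.71, 6.99, 7.36 and 7.89, against 6.25 over 6.66 to 7.22 in WT (-0.66 ± 0.15 SE, adjusted p = 0.0106, limma). Lss and Ebp, a sterol isomerase, are the genes called here that were not called in WT under ADR. Ebp was 8.69, 8.41, 8.37, 9.15 and 8.88, against 7.93 over 8.35 to 8.66 in WT (-0.38 ± 0.12 SE, adjusted p = 0.0479, limma).

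The remaining called differences were smaller or less certain. Pmvk differed by -0.75 ± 0.20 SE and Sqle by -0.79 ± 0.26 SE, with 12 and 7 of 14 WT arrays below every Suv39h1- array. Sqle was 8.02, 9.15, 8.19, 8.94 and 9.42 in the Suv39h1- lymphomas. Fdft1 was 7.36, 8.03, 7.55, 8.22 and 8.87 and differed by -0.75 ± 0.24 SE, against WT arrays from 6.66 over 7.27 to 8.11. Its dimmer probe sets differed by -0.39, 0.17 and 0.24 and were not called (adjusted p = 0.297, 0.402 and 0.144, limma over all probe sets). Acaca was 7.37, 8.41, 7.82, 8.65 and 9.21 and differed by -0.68 ± 0.22 SE, with 5 of 14 WT arrays below. Adjusted p was 0.0195 for Pmvk, 0.0488 for Sqle, 0.0437 for Fdft1 and 0.0435 for Acaca. Fibroblast markers were higher in these WT arrays by a median of 1.47 (2 of 24 called). Macrophage markers were higher by a median of 1.34 (13 of 13 above 0, 1 called), and proliferation genes lower by 1.39 at the median (14 of 17 called). The part of these lists in the differences was not tested.

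**Figure D5:**
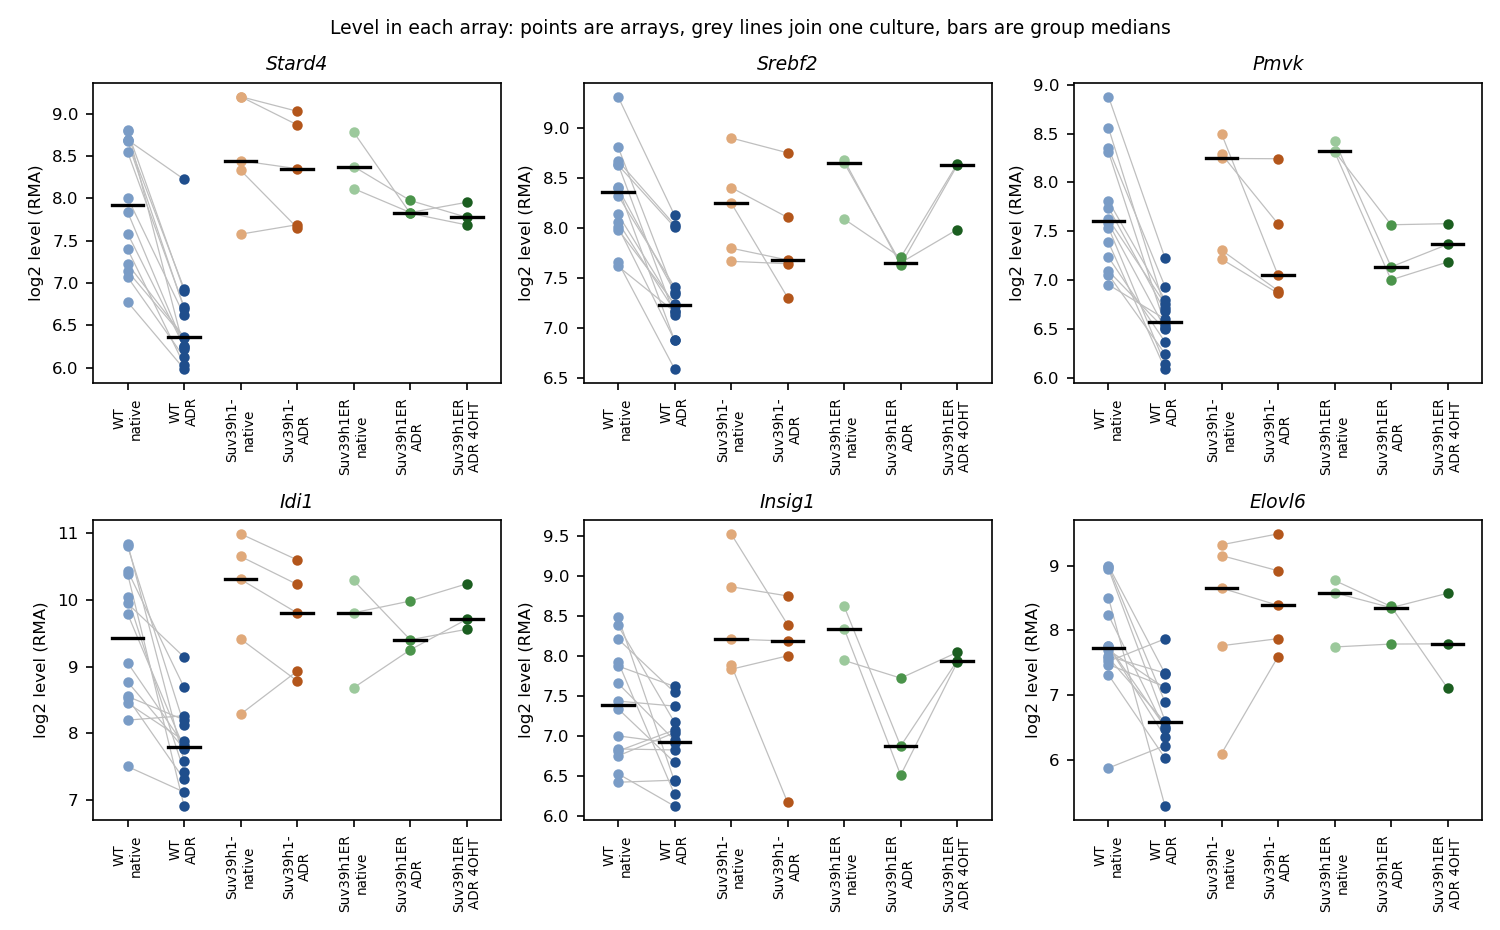
Log2 level of 6 genes in each of the 47 arrays by group; grey lines join the arrays of a culture and bars are group medians. Stard4, Pmvk and Srebf2 are lower in the WT ADR column in 14 of 14 pairs, and Srebf2 and Insig1 are higher with 4OHT than with ADR alone in 3 of 3 Suv39h1ER cultures.

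In Suv39h1ER cultures under ADR without 4OHT, no gene was called (0 of 30 in limma, with 0.126% of all genes called and 10 of the 30 at an unadjusted p under 0.05). Medians were -0.64 for the sterol genes, -0.75 for the regulators and -0.20 for the fatty acid genes. Levels did not overlap between native and ADR in 10 of 30 genes, against 18.9% of all genes, and 16 were lower in 3 of 3 cultures, against 17.2% of all genes. In the same comparison fibroblast markers had a median of 0.97 (22 of 24 above 0, 0 called), macrophage markers 1.30 (12 of 13 above 0, 1 called) and proliferation genes -0.52 (17 of 17 below 0, 0 called). The difference of the 3′ and 5′ Actb probe sets, a sign of RNA quality that grows as RNA degrades, was 0.471 to 0.791 under ADR and 0.910 to 1.386 in native arrays. The part of these in the changes was not tested. Pmvk was 8.43, 8.31 and 8.32 native and 7.14, 7.0 and 7.57 under ADR in SuvER-4146, SuvER-4936 and SuvER-5043. Its change of -1.12 ± 0.24 SE had an adjusted p of 0.0599 (limma), and it was called in 4 of 13 alternatives, one of them without SuvER-5043.

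With 4OHT added to ADR, Pmvk was 7.37, 7.19 and 7.58, below each native array. It was the only gene called against native cells (-0.98 ± 0.24 SE, adjusted p = 0.0288, limma, with 2.95% of all genes called). The call was lost when any of the 3 cultures was left out. Medians were -0.23 for the sterol genes, -0.13 for the regulators and -0.26 for the fatty acid genes. The sterol value rests on SuvER-4146, whose own median was -1.06 against 0.32 in SuvER-4936 and 0.18 in SuvER-5043; without it the median was 0.25.

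Compared with ADR alone, ADR with 4OHT gave values above 0 in 23 of 30 genes, with no call (0 of 30 in limma, with 0.143% of all genes called and 7 of the 30 at an unadjusted p under 0.05). Of the genes, 19 were higher in 3 of 3 cultures, including all 4 regulators and 12 sterol genes, and 2 were lower in 3 of 3. Over all genes, 14.7% were higher and 19.5% lower in every culture. Medians were 0.41, 0.62 and 0.17 for sterol genes, regulators and fatty acid genes, against -0.02 over all genes. Srebf2 went from 7.65, 7.63 and 7.71 to 7.99, 8.63 and 8.64 in SuvER-4146, SuvER-4936 and SuvER-5043, without overlap, which held for 20.2% of all genes (0.75 ± 0.21 SE, adjusted p = 0.132, limma). Its native levels there were 8.65, 8.68 and 8.09. Insig1 went from 6.87, 6.51 and 7.72 to 7.94, 7.92 and 8.04, also without overlap (0.93 ± 0.39 SE, adjusted p = 0.324, limma), from native levels of 8.62, 8.34 and 7.94.

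Srebf1 went from 8.39, 8.36 and 8.68 to 8.49, 9.17 and 9.20 (0.48 ± 0.22 SE), and Scap from 9.15, 8.71 and 9.10 to 9.24, 9.34 and 9.48 (0.37 ± 0.19 SE). Neither was called. Stard4 did not follow: it was 7.82, 7.98 and 7.83 under ADR and 7.69, 7.78 and 7.95 with 4OHT (-0.07 ± 0.28 SE, interval from -0.65 to 0.50). Fibroblast markers were below their ADR-alone level in 23 of 24 genes with a median of -0.58, and proliferation genes in 17 of 17 with a median of -0.77. The Actb difference was 0.875 to 0.915 with 4OHT, above each array with ADR alone and at the lower end of the native range. The part of these in the pathway's values was not tested.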

How the data were processed

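The deposited values are log2 expression levels from RMA; the authors used oligo and R 3.5.0, as named in the submitters' processing notes. The labels used here name no batch step. Of 45101 probe sets, 34958 carry 1 gene symbol, and the brightest per gene gave 18194 genes. Tests were run with limma 3.58.1 in R 4.3.3 (reading with the data.table package, version 1.17.8), two-sided, with Benjamini-Hochberg adjustment over all genes. Comparisons within cultures came from a single fit over 47 arrays with the 22 cultures as blocks. Genotypes were compared over 19 arrays without a block. The pairing comes from the series' design text. The deviations of paired arrays correlated above 0.1 in 10 of 14 WT, 5 of 5 Suv39h1- and 1, 0 and 1 of 3 Suv39h1ER pairs. The number of arrays limits the precision.

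The genes and lists were chosen with earlier results of these data known. Full values are given for the 5 sterol and 3 fatty acid genes with the smallest p in WT, for the regulators and for genes called elsewhere. Of each neighbouring list, up to 2 called genes per direction with the largest change are named. Alternatives cover the block, the spread, probe sets, dim genes (mean under 5), normalization, moderation, alike lymphomas, fibroblast markers (in WT) and left-out cultures. With each left-out culture counted, a comparison had up to 29. The fit was tested on simulated data.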

Additional observations from a re-analysis of the deposited data

Results flagged for a closer look

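Among the 5 Suv39h1- lymphomas, 3 of 33 changes under ADR had a value far from the others, and chance alone sets apart about 1 in 20. Idi1 changed by 0.65 in lymphoma 5783, against -0.63 to -0.39 in the other 4. Elovl6 changed by 1.498 in the same lymphoma, against -0.27 to 0.17. The median change of the regulators was -0.93 in lymphoma 1032, whose ADR array has the shifted median, against -0.02 to 0.04 in the other 4.

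The response of Stard4 differed between the genotypes, with a WT minus Suv39h1- difference of -1.16 (limma, adjusted p = 0.0460). Stard4 was lower in 14 of 14 WT lymphomas, and its mean change in Suv39h1- lymphomas was -0.23. The call of the difference held in 8 of 29 alternatives, with an adjusted p of up to 0.207 (limma).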

How the results depend on the processing

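No gene of the pathway that was called turned its direction under any alternative tried. Of the 18 calls in WT lymphomas, 16 were kept in every alternative except the fibroblast covariate, which left 6 calls in the pathway and 2070 over all genes. Mvd and Insig1 were the other losses. The replicate block changed little in WT, with 17 calls and 16 shared without it. Without the block, with culture as a random effect or with the compared groups alone, Suv39h1ER ADR with 4OHT against native had 0 calls in place of 1, as it had when any culture was left out (0 to 0), and the difference of responses had 0 in place of 1. The latter also had 0 with the mean of probe sets, every probe set tested, trend and robust moderation or the alike lymphomas counted once, 2 with the arrays centred on the median, and 0 to 2 with a culture left out. Suv39h1ER ADR against native had 1 call (Pmvk) with every probe set tested, without dim genes, after quantile normalization, and 0 to 1 with a culture left out. WT against Suv39h1- under ADR had 3 calls with the alike lymphomas counted once and 6 to 16 with a culture left out.

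Medians near 0 turned sign. For the fatty acid genes in Suv39h1- under ADR, -0.00 became 0.014 after quantile normalization, 0.077 with centred arrays, 0.0070 with the alike lymphomas counted once, 0.048 without lymphoma 9250 and 0.074 without 1032 (leave-one-out range -0.073 to 0.074). For the native genotypes it became 0.0020 with the mean of probe sets and 0.040 with the alike lymphomas counted once. Without SuvER-4146, ADR with 4OHT against native had medians of 0.25 for the sterol genes and 0.13 for the regulators (leave-one-out ranges -0.48 to 0.25 and -0.31 to 0.13). The causes were not tested. Of 39 further probe sets of these genes, 34 had the sign of the brightest in the WT response to ADR. None of the others was called in the opposite direction there. Between the genotypes, further probe sets of Srebf2, Scd2 and Acly in native arrays and of Scd2 under ADR were called higher in WT. Signal over background was not assessed.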
